A study of Mus musculus with 12 samples.

Results

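The 10 genes described here are the transcriptional coactivators *Yap1* (YAP) and *Wwtr1* (TAZ), the 4 genes of the TEAD family (*Tead1*, *Tead2*, *Tead3* and *Tead4*), and *Ccn1*, *Ccn2*, *Ankrd1* and *Amotl2*, which are widely used as readouts of YAP/TAZ activity. They were selected by symbol from the 51490 genes of the deposited table, and all 10 were among the 15037 genes that passed the filter on low counts. The cells were iMEPM cells, an immortalized line of mouse embryonic palatal mesenchyme, the connective tissue of the developing palate, derived from a male *Cdkn2a*-/- embryo, so that all groups lack this cell cycle inhibitor. Cells had been transduced with lentivirus for a scramble shRNA (scramble) or an shRNA against the splicing factor gene *Srsf3* (shSrsf3), selected with puromycin and sorted for GFP, which gave a single stable line for each shRNA. Each line was left without ligand (-PDGF-AA) or was given 10 ng/mL PDGF-AA, a ligand of the receptor PDGFRα, for 1 hr (+PDGF-AA). The study's general protocol for this stimulation starts with serum starvation, which its RNA-seq methods do not restate. mRNA was sequenced from 3 samples in each of these 4 groups. Because each shRNA is represented by 1 line, an effect of the knockdown and a difference between the lines cannot be told apart.

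In the Hippo pathway, the kinases MST1/2 (*Stk4*, *Stk3*) activate LATS1/2, which phosphorylate YAP and TAZ, and the phosphorylated coactivators are kept in the cytoplasm or degraded. When the kinases are inactive, YAP and TAZ enter the nucleus and bind TEAD proteins, which contact DNA at the letters GGAATG and increase the transcription of genes for matricellular proteins, cytoskeletal regulators and feedback inhibitors. In mesenchymal cells this output follows cell density, stiffness of the substrate and tension of actin fibers. As YAP and TAZ are regulated largely through phosphorylation and location, the mRNA levels given here report how much message each gene had and not the activity of the proteins.

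The promoters of *Ccn1* and *Ankrd1*, targets whose expression is described below, are shown first, as the 250 bases before the start of the canonical transcript, on the gene's strand and from 5′ to 3′ (GENCODE M39 on GRCm39, the build used by the authors). Capitals mark GGAATG, the core letters bound by TEAD proteins, or CATTCC, the same letters read on the other strand. *Ccn1* lies on chromosome 3 (145352720-145355738, minus strand) and *Ankrd1* on chromosome 19 (36089352-36097506, minus strand).
Ccn1, chr3:145355739-145355988, minus strand: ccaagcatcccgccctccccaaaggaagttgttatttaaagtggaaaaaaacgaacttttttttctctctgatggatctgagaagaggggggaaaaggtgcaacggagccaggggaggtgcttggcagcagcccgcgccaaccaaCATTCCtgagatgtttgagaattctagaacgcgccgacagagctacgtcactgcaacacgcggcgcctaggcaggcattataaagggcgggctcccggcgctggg
Ankrd1, chr19:36097507-36097756, minus strand: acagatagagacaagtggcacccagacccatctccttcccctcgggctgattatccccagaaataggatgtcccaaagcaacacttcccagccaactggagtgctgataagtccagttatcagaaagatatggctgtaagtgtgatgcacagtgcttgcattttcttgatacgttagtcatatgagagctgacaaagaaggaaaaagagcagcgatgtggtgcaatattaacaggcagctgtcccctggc
The *Ccn1* window held 1 copy on the opposite strand, starting 105 bases before the transcript start, and the *Ankrd1* window held none. No letters of this motif within 250 bases says nothing about TEAD binding farther away.

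Among the other members searched, the same window held 2 copies in *Amotl2*, 1 copy each in *Yap1*, *Wwtr1*, *Tead1* and *Tead3*, and none in *Tead2* and *Tead4*. For comparison, 12.1% of 21757 promoters of protein-coding genes held the letters on either strand, and 0.938% held them at least 2 times. The *Amotl2* gene is annotated from 102593836 to 102610617, so that its window precedes the canonical transcript but lies inside the gene. The windows of *Wwtr1* and *Tead4* overlap their genes in part. The sites of *Amotl2*, on chromosome 9, are shown with 12 bases on each side because the letters occur more than once in that window.
Amotl2, chr9:102594620-102594649, plus strand: tcggtgcctgtaGGAATGgagggtgagaac
Amotl2, chr9:102594720-102594749, plus strand: gcagggtggcagGGAATGaatgccgcacgg
The AP-1 motif TGANTCA, on either strand, and the CArG box bound by serum response factor were also searched and were found in none of these 9 windows, against 6.18% and 1.4% of all promoters. A match to such short letters is a description of the sequence and not evidence of a binding site.

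Samples held between 30958966 and 76123359 counts in total. Levels are given as CPM, counts per sample brought to the same library size with edgeR's composition factors, and log2 fold changes are differences on the log2 scale of these levels. Changes were tested with edgeR's quasi-likelihood test across all 15037 genes, and a gene is described as higher or lower when its Benjamini-Hochberg adjusted p was 0.05 or less. Per the study's methods, the 3 samples of a group were independent biological replicates. The p-values set each difference against the spread between replicates within groups, shared over the 4 groups, and do not cover a spread between lines. *Srsf3* was lower in shSrsf3 samples (161 to 164 against 199 to 212 CPM without ligand and 161 to 169.6 against 215 to 231 CPM with ligand), and the immediate early gene *Egr1* was higher upon stimulation in scramble (25.8 to 31.6 against 68.5 to 93.9 CPM) and shSrsf3 cells (49.9 to 58.6 against 103 to 119.6 CPM). All 9 mesenchymal markers examined had a mean above 1 CPM in both scramble groups and 8 in both shSrsf3 groups, where *Msx1* was at 0.897 and 0.719 CPM, with a summed level of 31180 to 36680 CPM that was lower in shSrsf3 samples, while markers of other cell types summed to at most 6.15 (epithelium), 2.70 (endothelium), 0.579 (muscle), 1.68 (blood) and 31.5 CPM (neural cells), with *Tie1* (endothelium), *Myod1* (muscle), *Adgre1* (blood), *Sox10* and *Elavl4* (neural cells) at 0 in all 12 samples. The mesenchymal sum was mostly *Col1a1*, *Col1a2* and *Vim* (means of 18235, 12477 and 4327 CPM in scramble -PDGF-AA samples). Of the 9 markers, *Prrx1*, *Msx1*, *Pax9*, *Col1a2* and *Pdgfra* were lower in shSrsf3 samples in both conditions, and *Osr2* without ligand. *Vim* was higher in both conditions, and *Twist1* and *Col1a1* were called in neither. The epithelial and neural sums were lower in shSrsf3 (2.86 to 4.15 and 20.0 to 24.7 CPM) than in scramble samples (4.75 to 6.15 and 28.2 to 31.5 CPM) and the endothelial sum was higher (2.14 to 2.70 against 0.727 to 1.22 CPM), and their part in the results was not tested.

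A split among the scramble samples touches several results. Per the study's methods, 3 of them had lower mapping rates than the other 9 samples, namely 2 without ligand (replicates 1 and 2) and 1 with ligand (replicate 2). Scramble -PDGF-AA replicate 3 differed from replicates 1 and 2 of its group (chi-square per degree of freedom of 24.7 and 32.6, against 5.25 between replicates 1 and 2), and +PDGF-AA replicate 2 differed from replicates 1 and 3 (23.5 and 16.5, against 6.99). In the shSrsf3 groups, this value was between 4.00 and 8.56. Scramble -PDGF-AA replicate 3 also had the lowest *Ccn1*, *Ccn2* and *Amotl2* of all scramble samples, as well as the lowest *Ankrd1*. Results that depend on these samples are given with and without them below. Leaving out the 3 samples of lower mapping rate leaves replicate 3 as the only scramble -PDGF-AA sample, which is then assumed to vary like the other groups.

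When scaled to the length of the canonical transcript, the 4 targets were expressed at higher levels than the coactivators and TEAD genes in every group. In scramble -PDGF-AA samples, *Ccn2*, which encodes the matricellular protein CTGF, had 1253 ± 207 CPM per kb (SD, n = 3), *Ccn1*, which encodes the related protein CYR61, had 311 ± 25.8, *Amotl2*, an angiomotin family scaffold that binds YAP, had 147 ± 7.15, and *Ankrd1*, a transcriptional cofactor of the ankyrin repeat family, had 128 ± 17.9. *Yap1*, *Tead2*, *Tead3*, *Tead1* and *Wwtr1* followed within a narrow range of 43.7 to 36.0 CPM per kb, in which the samples of each neighbouring pair in the order overlapped. *Tead4* was lowest, with 3.14 ± 0.239 CPM per kb. In the unscaled counts, *Ccn2* alone took 0.282 to 0.441% of all counts of a sample and ranked between 14 and 26 among all genes.

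The order of levels per kb differed between groups in the third to the eighth place. *Amotl2* and *Ankrd1* overlapped in scramble samples (147 ± 7.15 and 128 ± 17.9 CPM per kb without ligand, 150.5 ± 2.50 and 152 ± 6.07 with ligand), whereas they were separate in shSrsf3 samples (166 ± 1.60 and 84.3 ± 1.05 without ligand, 168 ± 7.73 and 85.4 ± 3.88 with ligand). *Tead3* had the fifth highest level in both shSrsf3 groups, with 45.6 ± 1.4 and 44.1 ± 0.255 CPM per kb, where *Yap1* held this place in scramble samples with 43.7 ± 0.288 and 43.9 ± 0.829. *Tead1*, *Tead2* and, depending on the line, *Tead3* or *Yap1* followed with means of 36.3 to 42.4 CPM per kb and in a different order in each group. Lengths were those of 1 transcript per gene, so that a different mixture of isoforms would shift these levels.

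**Figure D1:**
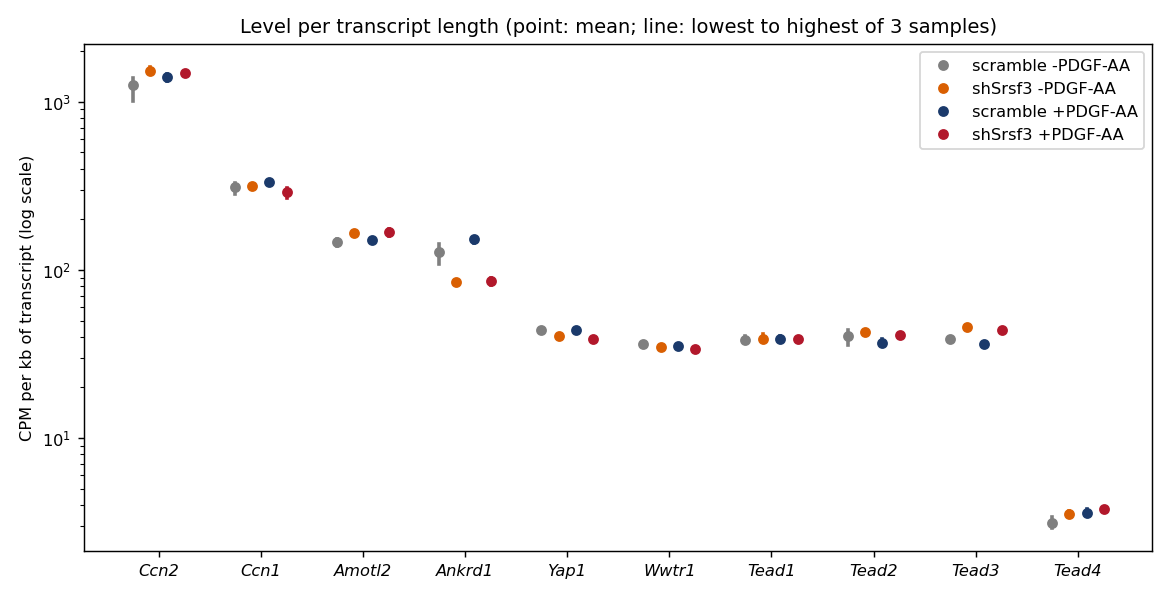
Level of each of the 10 genes in CPM per kb of the canonical transcript (y axis, log scale) in the 4 groups, with the mean as a point and the range of the 3 samples as a line. *Ankrd1* drops from beside *Amotl2* in scramble samples to 84.3 and 85.4 CPM per kb in shSrsf3 samples, and *Tead4* stays far below the other TEAD genes.

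Scramble and shSrsf3 samples were first compared within the same ligand condition, which asks which of these genes depend on the knockdown line. Without ligand, 6 of the 10 genes differed, with *Tead3*, *Tead4*, *Ccn2* and *Amotl2* higher and *Yap1* and *Ankrd1* lower in shSrsf3 samples, against 45.9% of all genes tested. With ligand, 5 genes differed, with *Tead3* and *Amotl2* higher and *Yap1*, *Ccn1* and *Ankrd1* lower, against 41.0% of all genes. None of the 10 reached a 2-fold change, as did 5.75% and 5.42% of all genes with the same adjusted p. The median log2 fold change of the members was 0.05 and 0.04 (-0.02 and -0.01 over all genes), and the median size was 0.14 and 0.16 (0.20 and 0.19 over all genes). The values of shSrsf3 and scramble samples did not overlap for 6 members without and 7 members with ligand, against 53.3% and 52.6% of all genes.

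**Figure D2:**
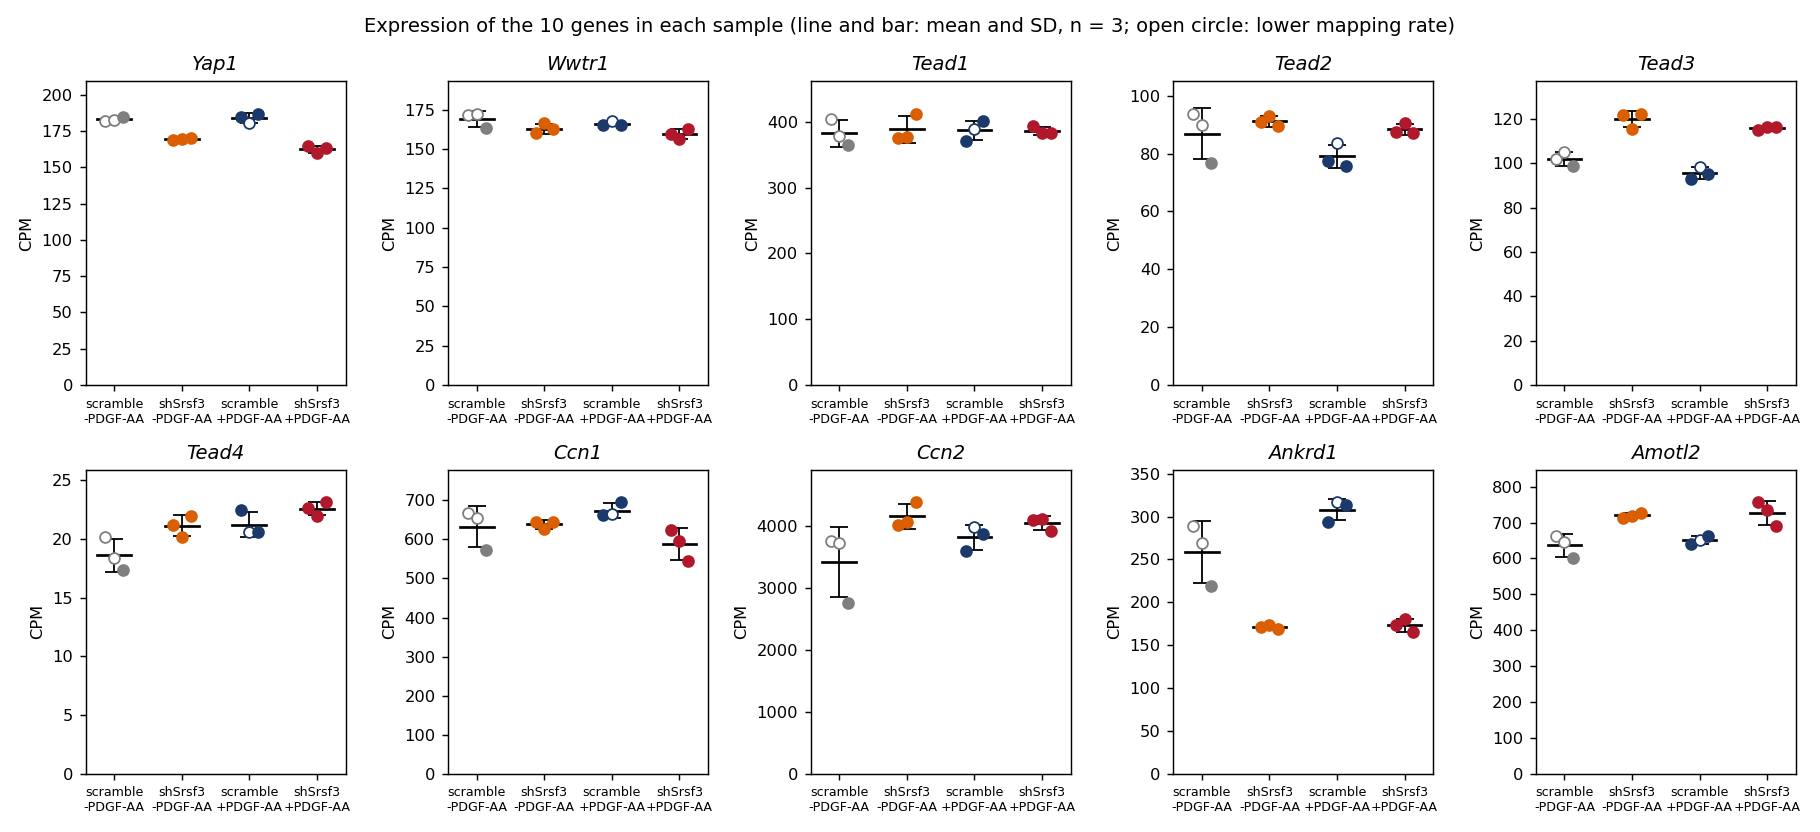
CPM of the 10 genes (y axes, each from 0) in each of the 12 samples, grouped on the x axis, with the mean and SD of 3 samples and open circles for the 3 samples of lower mapping rate. The shSrsf3 samples of *Ankrd1* sit between 165 and 181 CPM, all below the scramble samples at 219 to 317 CPM.

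*Ankrd1* had the largest change among the members in both comparisons. Without ligand, it had 289.5, 269 and 219 CPM in scramble samples and 171, 173 and 169 CPM in shSrsf3 samples. With ligand, it had 294, 317 and 314 CPM in scramble samples and 174, 181 and 165 CPM in shSrsf3 samples. All 6 shSrsf3 samples were below all 6 scramble samples, and the lowest scramble value was that of -PDGF-AA replicate 3. The log2 fold change was -0.60 (SE 0.0767, adjusted p = 2.82e-05 by edgeR's test) without ligand, a fall of 34.0%, and -0.83 (SE 0.0770, adjusted p = 1.51e-06 by edgeR's test) with ligand, a fall of 43.8%. Without the 3 samples of lower mapping rate, these values were -0.36 (adjusted p = 1.48e-04) and -0.81 (adjusted p = 1.22e-08 by edgeR's test), so the first then rested on -PDGF-AA replicate 3 as the only scramble sample.

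*Ccn2* moved in the opposite direction without ligand. It had 3769, 3725 and 2767 CPM in scramble -PDGF-AA samples and 4022, 4066 and 4388 CPM in shSrsf3 -PDGF-AA samples. The groups did not overlap, and replicate 3 was far below the other scramble samples. The log2 fold change was 0.28 (SE 0.0882, adjusted p = 0.0184 by edgeR's test). It was 0.16 (adjusted p = 0.00805 by edgeR's test) without scramble -PDGF-AA replicate 3, 0.58 (adjusted p = 4.62e-06) without the samples of lower mapping rate, with the low replicate 3 as the only scramble sample, and lost the call without shSrsf3 -PDGF-AA replicate 3 (0.25, adjusted p = 0.0585 by edgeR's test). With ligand, *Ccn2* had 3599.7, 3992 and 3882 CPM in scramble and 4107, 4124 and 3932 CPM in shSrsf3 samples, which overlapped. The log2 fold change was 0.08 (95% interval -0.11 to 0.27, adjusted p = 0.484 by edgeR's test), and 0.11 without the samples of lower mapping rate. Over the 19 alternatives run, it lay between 0.04 and 0.17 and was called in 2.

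The ratio of the 2 targets within a library does not depend on normalization. *Ankrd1* had 7.68, 7.21 and 7.91 counts per 100 *Ccn2* counts in scramble -PDGF-AA samples and 4.25, 4.26 and 3.85 in shSrsf3 -PDGF-AA samples. With ligand, the ratio was 8.17, 7.93 and 8.08 in scramble and 4.23, 4.38 and 4.199 in shSrsf3 samples. Scramble -PDGF-AA replicate 3, which had the lowest level of both genes, did not stand apart in this ratio. The mean difference was -3.49 without and -3.79 with ligand, and the exact two-sided permutation test gave p = 0.1 in both cases, the smallest that 3 samples against 3 can give. As the *Ankrd1* levels of the lines were already separate in the same samples, this test adds no independent support. *Ccn1* had 18.7 ± 1.73 counts per 100 *Ccn2* counts in scramble and 15.4 ± 0.690 in shSrsf3 samples without ligand, and 17.7 ± 0.887 and 14.5 ± 0.695 with ligand (SD, n = 3; exact permutation p = 0.1 in both).

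**Figure D3:**
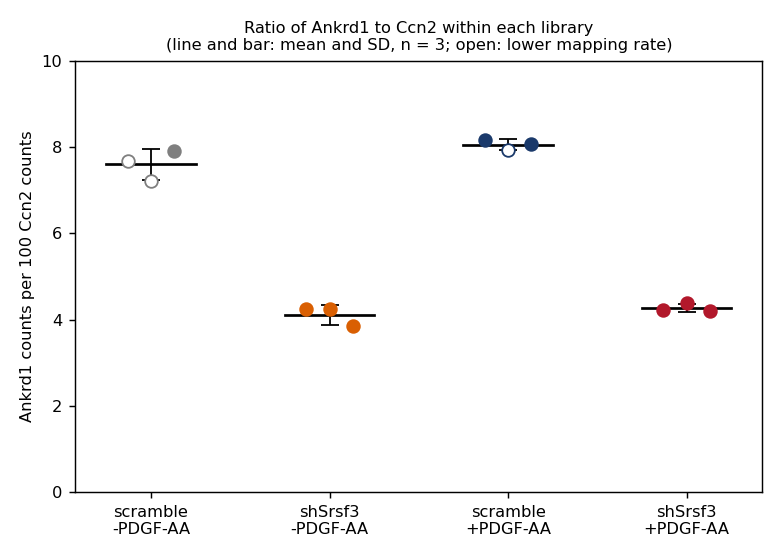
*Ankrd1* counts per 100 *Ccn2* counts (y axis, from 0) in each sample of the 4 groups, with the mean and SD of 3 samples and open circles for lower mapping rate. Scramble samples lie between 7.21 and 8.17 and shSrsf3 samples between 3.85 and 4.38.

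*Ccn1* overlapped between the lines without ligand, with 669, 655 and 572 CPM in scramble and 646, 626 and 644 CPM in shSrsf3 samples. The log2 fold change was 0.01 (95% interval -0.11 to 0.14, adjusted p = 0.856 by edgeR's test), and -0.04 (adjusted p = 0.525 by edgeR's test) without scramble -PDGF-AA replicate 3. With ligand, it had 662, 665 and 695 CPM in scramble and 625, 595 and 544 CPM in shSrsf3 samples. All shSrsf3 values were then below all scramble values, by a log2 fold change of -0.20 (SE 0.0581, adjusted p = 0.0151 by edgeR's test). This call was lost without scramble +PDGF-AA replicate 3 (adjusted p = 0.0594) or shSrsf3 +PDGF-AA replicate 3 (adjusted p = 0.0677 by edgeR's test).

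*Amotl2* was higher in shSrsf3 samples in both conditions. It had 662, 645 and 602 CPM in scramble and 714, 719 and 727 CPM in shSrsf3 samples without ligand. It had 640.2, 652 and 662 CPM in scramble and 757, 735 and 691 CPM in shSrsf3 samples with ligand. The groups did not overlap in either condition, with log2 fold changes of 0.18 (SE 0.0408, adjusted p = 0.00289) and 0.16 (SE 0.0408, adjusted p = 0.00649 by edgeR's test). Of the 4 targets, *Amotl2* and *Ankrd1* thus changed in both conditions and in opposite directions.

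Of the coactivators, *Yap1* was lower in shSrsf3 samples by a small margin that exceeded its spread. Without ligand, it had 182, 183 and 184 CPM in scramble and 169, 169.5 and 170.2 CPM in shSrsf3 samples. In the presence of ligand, the values were 185, 180.2 and 187 CPM in scramble and 164, 159.7 and 163 CPM in shSrsf3 samples. The groups were separate in both conditions, and the log2 fold change was -0.11 (SE 0.0305, adjusted p = 0.00924) without and -0.18 (SE 0.0305, adjusted p = 3.48e-04 by edgeR's test) with ligand. The first call was lost when no filter on low counts was applied (adjusted p = 0.0723 by edgeR's test).

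*Wwtr1* had 172, 173 and 163 CPM in scramble and 160.0, 166 and 163 CPM in shSrsf3 samples without ligand, which overlapped. With ligand, it had 165.5, 168 and 165 CPM in scramble and 159, 156 and 163 CPM in shSrsf3 samples, which did not. The log2 fold change was -0.05 (95% interval -0.13 to 0.02, adjusted p = 0.216) and -0.06 (95% interval -0.13 to 0.01, adjusted p = 0.178 by edgeR's test), below the threshold in both cases. *Yap1* made up 54.8 ± 0.907% and 53.9 ± 0.459% of the 2 coactivators per kb in scramble and shSrsf3 samples without ligand, and 55.4 ± 0.694% and 53.4 ± 0.343% with ligand (SD, n = 3).

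Within the TEAD family, which supplies the DNA-binding partner of YAP and TAZ, the 3 most abundant members had similar shares per kb. These shares rest on canonical transcripts of 9969 (*Tead1*), 2148 (*Tead2*) and 2628 bases (*Tead3*). In scramble -PDGF-AA samples, the unscaled means were 382, 86.9 and 102 CPM in the same order, and other isoforms would shift the shares. Between the lines, *Tead3* had the largest log2 fold change of the family. It had 102, 105 and 98.9 CPM in scramble and 121.5, 116 and 122 CPM in shSrsf3 samples without ligand. Its values with ligand were 92.9, 98.4 and 95.1 CPM in scramble and 115, 116 and 116 CPM in shSrsf3 samples. No sample overlapped between the lines, with log2 fold changes of 0.23 (SE 0.0379, adjusted p = 2.39e-04) and 0.28 (SE 0.0381, adjusted p = 5.21e-05 by edgeR's test). *Tead3* took 32.2 ± 1.36% of the summed TEAD level per kb in scramble and 34.9 ± 0.698% in shSrsf3 samples without ligand, and 31.4 ± 0.0325% and 34.5 ± 0.299% with ligand (SD, n = 3).

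*Tead4*, which had the fewest counts of the members (709 to 1638 per sample), was higher in shSrsf3 samples without ligand. It had 20.1, 18.3 and 17.3 CPM in scramble and 21.2, 20.2 and 21.9 CPM in shSrsf3 samples without ligand. Upon stimulation, the level was 22.4, 20.6 and 20.6 CPM in scramble and 22.7, 21.96 and 23.1 CPM in shSrsf3 samples. Without ligand, the highest scramble value lay just under the lowest shSrsf3 value, and with ligand the groups overlapped. The log2 fold changes were 0.18 (SE 0.0577, adjusted p = 0.0191) and 0.09 (95% interval -0.03 to 0.22, adjusted p = 0.236 by edgeR's test). The call without ligand was lost without scramble replicate 3, shSrsf3 replicate 1 or shSrsf3 replicate 3 of the -PDGF-AA groups (adjusted p = 0.0606, 0.0564 and 0.0600 by edgeR's test). The difference between the 2 conditions was not significant (interaction -0.09, adjusted p = 0.884 by edgeR's test).

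*Tead2* had 93.8, 89.9 and 76.9 CPM in scramble and 91.0, 93.1 and 89.4 CPM in shSrsf3 samples without ligand, which overlapped. With ligand, it had 77.6, 83.7 and 75.8 CPM in scramble and 87.5, 90.6 and 87.2 CPM in shSrsf3 samples, which did not. The log2 fold changes were 0.07 (adjusted p = 0.376) and 0.16 (adjusted p = 0.0536 by edgeR's test). With ligand, the value was close to the threshold and passed it in 10 of 19 alternatives, with adjusted p between 2.85e-04 and 0.174. Among these were the DESeq2 test (0.17, adjusted p = 0.0239) and leaving out scramble -PDGF-AA replicate 1 or 3 or +PDGF-AA replicate 2 (adjusted p = 0.0298, 0.00540 and 0.0306 by edgeR's test). The samples of lower mapping rate had the highest *Tead2* level in both scramble groups. Without them, the value with ligand was 0.20 (adjusted p = 9.04e-04 by edgeR's test). Without ligand it was 0.24 (adjusted p = 0.00161 by edgeR's test) against replicate 3 alone, which had the lowest level of its group. *Tead1* had 365 to 413 CPM in all 12 samples, with log2 fold changes of 0.02 (95% interval -0.08 to 0.13) and -0.00 (95% interval -0.10 to 0.10), the smallest of the family with ligand.

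**Figure D4:**
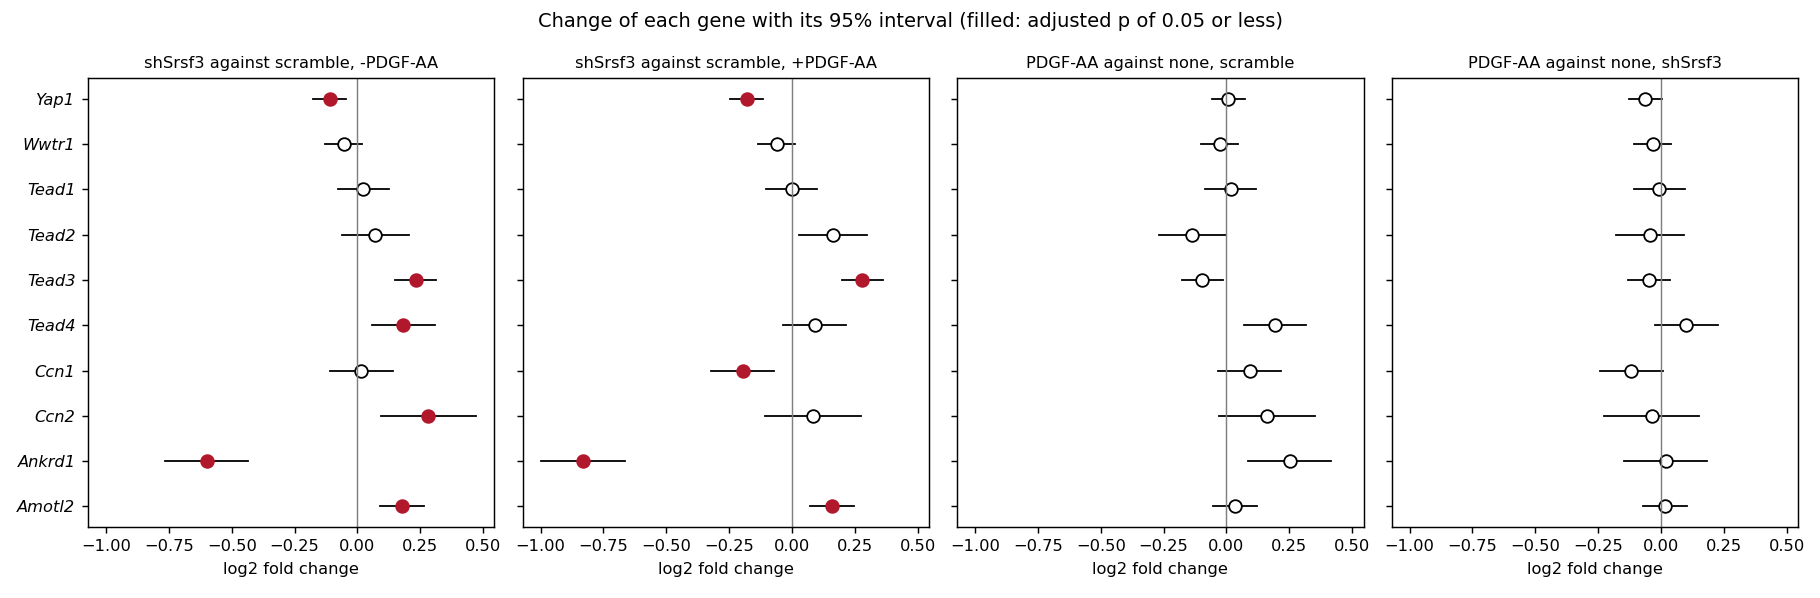
Log2 fold change (x axes) of each of the 10 genes with its 95% interval in the 4 comparisons, filled where the adjusted p was 0.05 or less. *Ankrd1* is farthest from 0 between the lines, at -0.60 and -0.83, and no point is filled for PDGF-AA against none.

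Samples with and without PDGF-AA were next compared within each line, to ask whether 1 hr of stimulation changes these genes. With the filter on low counts, none of the 10 genes was called in scramble cells (4.04% of all genes were, and 0.200% with 2-fold or more). None was called in shSrsf3 cells (0.565% and 0.0399%). At an unadjusted p under 0.05 in edgeR's test, 4 members differed in scramble cells (*Tead2*, *Tead3*, *Tead4* and *Ankrd1*) and 0 in shSrsf3 cells, and DESeq2 called 1 (*Ankrd1*, adjusted p = 0.0109) and 0. The median log2 fold change of the members was 0.03 in scramble and -0.03 in shSrsf3 cells (-0.01 and -0.00 over all genes).

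*Ankrd1* had the largest value upon stimulation, 0.25 in scramble cells (95% interval 0.09 to 0.42, adjusted p = 0.0908 by edgeR's test), and all its +PDGF-AA values (294 to 317 CPM) were above its -PDGF-AA values (219 to 289.5 CPM). In shSrsf3 cells, the value was 0.02 (95% interval -0.15 to 0.18). *Ccn2* had 0.16 in scramble (95% interval -0.03 to 0.35) and -0.04 in shSrsf3 cells (95% interval -0.23 to 0.15). *Tead4* had 0.19 in scramble cells (adjusted p = 0.0855 by edgeR's test).

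These ligand values changed with the filter on low counts and with the samples used. With no filter and all 12 samples, *Ankrd1*, *Ccn2* (adjusted p = 2.66e-05 by edgeR's test) and *Tead4* were called in scramble cells. This was so for 4.75% of the 27138 genes then tested. The lower mapping rate was found in 2 of 3 -PDGF-AA but 1 of 3 +PDGF-AA scramble samples, and as -PDGF-AA replicate 3 is the only unstimulated scramble sample without it, the mapping rate and this sample cannot be told apart. Among the samples of lower mapping rate, *Ankrd1* went from a mean of 279 CPM (n = 2) to 317 CPM (n = 1), and among the others it went from 219 (n = 1) to 304 CPM (mean, n = 2). *Ccn2* went from 3747 to 3992 CPM in the former and from 2767 to 3741 CPM in the latter. Both genes thus had higher means with ligand in each subset, by 1.13 and 1.07 times in the former and 1.39 and 1.35 times in the latter. With a term for lower mapping rate in the model, *Ankrd1* (0.33, adjusted p = 0.00253) and *Ccn2* (0.26, adjusted p = 0.0184 by edgeR's test) were higher upon stimulation of scramble cells. Without the samples of lower mapping rate, *Ankrd1* (0.47), *Ccn2* (0.43) and *Tead4* (0.31) were higher (adjusted p = 8.29e-04, 0.00144 and 0.0355 by edgeR's test), with -PDGF-AA replicate 3 as the only unstimulated scramble sample. Without -PDGF-AA replicate 3, by contrast, *Ankrd1* had 0.15 (adjusted p = 0.0550) and *Ccn2* 0.04 (adjusted p = 0.608 by edgeR's test). *Tead2*, with -0.14 in scramble cells (adjusted p = 0.281), was then lower upon stimulation (-0.21, adjusted p = 0.0166 by edgeR's test).

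The interaction tests whether the response to ligand differed between the lines. It passed for 0 of the 10 genes and for 0.0133% of all genes with edgeR, with *Ccn1* (-0.21, unadjusted p = 0.0228 by edgeR's test) as the only member under an unadjusted p of 0.05, and for 0 members with DESeq2. *Ankrd1* (-0.23, 95% interval -0.46 to 0.00) and *Ccn2* (-0.20, 95% interval -0.47 to 0.07) were also negative. Without the samples of lower mapping rate, *Ankrd1* (-0.45) and *Ccn2* (-0.47) passed the threshold (adjusted p = 0.0389 for both by edgeR's test), again with replicate 3 as the only unstimulated scramble sample and with the spread taken from the other groups. With a term for lower mapping rate they did not (-0.31, adjusted p = 0.253, and -0.30, adjusted p = 0.349 by edgeR's test). With no filter on low counts and all 12 samples, *Ankrd1*, *Ccn1* and *Ccn2* passed, as did 0.803% of the 27138 genes then tested. The adjusted p was 0.0274 for *Ccn1* and 0.00156 for *Ccn2* by edgeR's test.

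The other genes of the pathway were read from lists of 30 Hippo regulators and 18 other YAP/TAZ targets, and *Lats2* and *Ptpn14* are counted in both. Of the Hippo regulators, 28 passed the filter on low counts, while *Vgll1* and *Vgll2*, TEAD cofactors, did not. Between the lines, 17 regulators differed without ligand (11 higher, 6 lower) and 15 with ligand (9 higher, 6 lower), which is 60.7% and 53.6% of those tested against 45.9% and 41.0% of all genes. Their median log2 fold change was 0.06 and 0.04, and the median size was 0.18 and 0.14 (0.20 and 0.19 over all genes). As the list was chosen with earlier results of these data known, the share called describes the list and tests nothing. The largest rise was that of *Stk4*, which encodes the core kinase MST1. It had 21.7, 21.4 and 20.7 CPM in scramble and 36.7, 37.3 and 36.5 CPM in shSrsf3 samples without ligand, and the groups did not overlap. The log2 fold change was 0.80 (SE 0.0482, adjusted p = 2.36e-08) without and 0.89 (SE 0.0489, adjusted p = 1.07e-08 by edgeR's test) with ligand. *Stk3*, which encodes MST2, was called in neither condition (0.06, adjusted p = 0.507, and 0.08, adjusted p = 0.356 by edgeR's test). It is named here after its values were seen. Unstimulated scramble cells had a mean *Stk3* level of 75.3 CPM and a mean *Stk4* level of 21.2 CPM. The corresponding shSrsf3 means were 78.3 and 36.8 CPM. The summed level of both kinase genes was not tested.

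*Amot*, an angiomotin that binds YAP and a paralog of *Amotl2*, had 105, 98.8 and 105 CPM in scramble and 146, 157 and 163 CPM in shSrsf3 samples without ligand. Its log2 fold changes were 0.59 (adjusted p = 1.50e-06) and 0.53 (adjusted p = 4.33e-06 by edgeR's test). *Amotl1*, named here after its values were seen because it completes the family, had 0.22 (adjusted p = 2.50e-04) and 0.27 (adjusted p = 4.79e-05 by edgeR's test). All 3 angiomotin genes were thus higher in shSrsf3 samples in both conditions. *Frmd6*, a FERM domain protein upstream of the Hippo kinases, was lower, with 168, 167 and 165 CPM in scramble and 120.2, 133 and 129.9 CPM in shSrsf3 samples without ligand (-0.39, adjusted p = 1.23e-05) and -0.54 (adjusted p = 5.64e-07 by edgeR's test) with ligand.

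Of the 18 other targets, 14 differed between the lines in each condition, 7 higher and 7 lower without ligand and 6 higher and 8 lower with ligand. This is 77.8% of the list, against 45.9% and 41.0% of all genes. Their median log2 fold change was -0.04 and -0.00, and the median size was 0.23 and 0.22 (0.20 and 0.19 over all genes). This list, too, was chosen with earlier results of these data known, so its share called tests nothing. *Igfbp3*, a secreted binding protein for insulin-like growth factors, had 50.7, 54.6 and 52.7 CPM in scramble and 31.3, 30.5 and 30.1 CPM in shSrsf3 samples without ligand. It was lower in both conditions (-0.78, adjusted p = 1.70e-05, and -0.89, adjusted p = 6.82e-06 by edgeR's test). *F3*, the coagulation initiator tissue factor, was also lower (-0.31, adjusted p = 0.00553, and -0.67, adjusted p = 1.22e-05 by edgeR's test). The targets thus went in both directions, as the 4 targets among the members did.

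**Figure D5:**
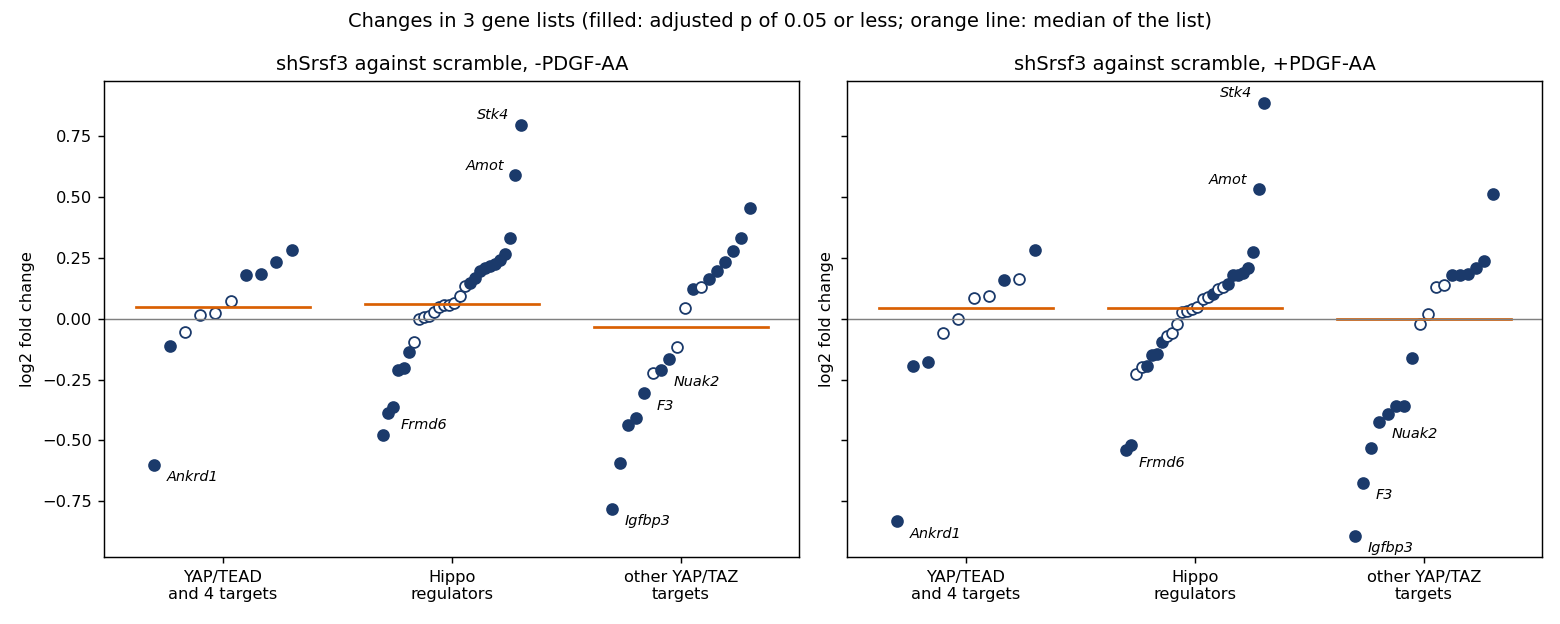
Log2 fold change of shSrsf3 against scramble (y axis) for the 10 genes, 28 Hippo regulators and 18 other YAP/TAZ targets, each sorted from low to high, filled where the adjusted p was 0.05 or less, with the list median as a line. Points lie on both sides of 0 in each list, with *Stk4* at 0.80 and 0.89 and *Igfbp3* at -0.78 and -0.89, and list medians between -0.04 and 0.06.

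Upon stimulation, 3 Hippo regulators changed in scramble cells (10.7%, against 4.04% of all genes), with *Frmd6* and *Lats2* higher and *Stk38* lower, and 0 in shSrsf3 cells (0.565% of all genes) with edgeR or DESeq2 (1 at an unadjusted p under 0.05 in edgeR's test). The number in scramble cells rests on single libraries, with 0 without -PDGF-AA replicate 2 or +PDGF-AA replicate 3, 1 without +PDGF-AA replicate 1 or 2, and 8 without -PDGF-AA replicate 3. Of the other targets, 3 were higher in scramble (*Nuak2*, *F3* and *Lats2*) and 1 in shSrsf3 cells (*Nuak2*), or 16.7% and 5.56% against the same 4.04% and 0.565% of all genes. The number of targets in scramble cells also rests on single libraries, with 1 to 4 when single samples were left out. *Lats2* and *Stk38* are named here after their values were seen. *Nuak2*, a kinase of the AMPK-related family, had 42.6, 44.7 and 43.9 CPM without and 78.2, 75.1 and 72.8 CPM with ligand in scramble cells. In shSrsf3 cells, it had 34.3, 36.9 and 42.7 CPM without and 59.8, 53.7 and 54.9 CPM with ligand. All stimulated samples were above all unstimulated samples of the same line, by 0.78 (SE 0.0677, adjusted p = 2.21e-05) in scramble and 0.57 (SE 0.0688, adjusted p = 0.00155 by edgeR's test) in shSrsf3 cells, and it was the only listed target that changed in both lines. *F3* rose in scramble cells, from 377, 354 and 299 to 418, 442 and 484 CPM (0.38, adjusted p = 0.0133 by edgeR's test), with 0.02 in shSrsf3 cells (adjusted p = 0.983 by edgeR's test), a difference that did not pass as an interaction (-0.37, adjusted p = 0.702 by edgeR's test). The *F3* value of 299 CPM was that of -PDGF-AA replicate 3, and no *F3* value without this sample is given here. *Frmd6* rose by 0.21 in scramble cells (adjusted p = 0.0181 by edgeR's test).

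Among the 8 paralogs of the targets, *Ccn6* and *Ankrd2* did not pass the filter on low counts, and 4 of the other 6 differed between the lines in each condition, 2 higher (*Amot* and *Amotl1*, which are also among the Hippo regulators) and 2 lower. This is 66.7% in each condition, against 45.9% and 41.0% of all genes, again in a list chosen with earlier results of these data known. *Ccn4* had 543, 569 and 578 CPM in scramble and 355, 342 and 385 CPM in shSrsf3 samples without ligand. The groups were separate, with log2 fold changes of -0.64 (adjusted p = 1.29e-07) and -0.60 (adjusted p = 2.68e-07 by edgeR's test). *Ccn3*, another secreted matricellular protein, had -0.49 (adjusted p = 8.32e-05) and -0.59 (adjusted p = 1.63e-05 by edgeR's test). Within the CCN family, *Ccn3* and *Ccn4* were thus lower in shSrsf3 samples in both conditions, whereas *Ccn2* was higher without ligand. Upon stimulation, the log2 fold changes of the 6 paralogs lay between -0.04 and 0.13 in scramble and between -0.09 and 0.11 in shSrsf3 cells.

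For each member that differed in at least 1 comparison, the genes with the most similar profile were identified by the root mean square difference of log2 levels, centred per gene, across 12 samples and 12261 genes. *Adipor1* (0.0201) and *Nedd4* (0.0212) were closest to *Yap1*, *Mmab* (0.0284) and *Adcy6* (0.0293) to *Tead3*, and *Dhx33* (0.0367) and *Jmjd6* (0.0411) to *Tead4*. *Prkab2* (0.0518) and *Bcl6* (0.0534) were closest to *Ccn1*, *Metrnl* (0.0666) and *Srf* (0.0725) to *Ccn2*, *Timp3* (0.0932) and *Gcnt2* (0.0980) to *Ankrd1*, and *Neo1* (0.0328) and *Kdm3b* (0.0365) to *Amotl2*. Among the members themselves, *Yap1* and *Wwtr1* were the most similar pair (0.0555) and *Tead3* and *Ankrd1* the least (0.507). This difference is not scaled to how much a gene varies, so that it is small between genes that vary little. The SD of the log2 level over the 12 samples was 0.081 for *Yap1*, 0.143 for *Tead3*, 0.102 for *Ccn1* and 0.396 for *Ankrd1*. All profiles come from the same 12 libraries, so that these values describe the samples.

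Few reads of these genes could have been split with other genes, as 0 (*Ccn1*) to 2.06% (*Yap1*) of the 31-base sequences in their transcripts also occurred in transcripts of other genes. *Ccn1* and *Ccn2* each overlap a lncRNA gene on the opposite strand, *Gm17501* with 58 to 193 and *Gm15270* with 148 to 384 counts per sample, against at least 16906 and 122157 counts of *Ccn1* and *Ccn2*.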

How the data were processed

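RNA-seq libraries of the 12 samples were examined, 3 in each of the 4 groups given by the labels. Reads had been trimmed by the authors (BBDuk) and assigned to GENCODE M26 transcripts of GRCm39 by Salmon (v1.4.0), and transcripts had been summed per gene (tximport). The deposited expected counts are estimated read pairs per gene, not scaled to library size, and 16.3% of the values were not whole. They were rounded, filtered with filterByExpr (minimum count 10), normalized by TMM and tested with the quasi-likelihood test of edgeR 4.0.16 (R 4.3.3) in 1 model of all 12 samples. The code for this test was checked on simulated counts with the same spread for every gene and without a split among the scramble samples. That check therefore does not cover the effect of this split. The 10 members and the gene lists were chosen with earlier results of these data known. Members were always named, *Srsf3* and *Egr1* were named as checks, and of each list every gene with a called 2-fold change was to be named or, as there was none, the 3 called genes with the largest change. The 2 nearest profiles were named for each called member among genes with a mean count of at least 50. Alternatives were DESeq2 1.42.0 (size factors and Wald test), no filter, the replicate block, 2 groups alone, and leaving out samples. A term for lower mapping rate was chosen after seeing the data. Promoters and lengths were taken from GENCODE M39 on GRCm39, and 1 promoter is not reported here. Protein sequences were not analysed here.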

Additional observations from a re-analysis of the deposited data

How the results depend on the processing

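Between the lines, the counts of members, Hippo regulators and other targets called stayed within 1.5 times under every alternative run, and *Ankrd1*, *Tead3* and *Amotl2* kept their calls and directions in all 19, as did *Yap1* with ligand. Upon stimulation of scramble cells, the number of members called (0) was 1 with the DESeq2 Wald test, 3 without a low-count filter, 3 without the samples of lower mapping rate, 2 with a term for lower mapping rate, and between 0 and 2 when single samples were left out (2 without scramble -PDGF-AA replicate 1, *Ankrd1* and *Tead4*, and 1 without replicate 3, *Tead2*). The interaction was called for 3 members without a filter and 2 without the samples of lower mapping rate. The number of Hippo regulators called in scramble cells (3) was 5 with DESeq2, 1 with only the 2 groups, 0 without the samples of lower mapping rate and 0 to 8 with single samples left out, and in shSrsf3 cells (0) it was 1 without a filter, with only the 2 groups, without the samples of lower mapping rate, and with the mapping term, and 0 to 1 with single samples left out. The other targets in scramble cells (3) were 1 with only the 2 groups and 1 to 4 with single samples left out, the 1 without scramble +PDGF-AA replicate 3. The cause was not tested.

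Directions turned only for values that were not called. *Tead1* between the lines with ligand was 0.0045 with DESeq2's size factors, 0.0045 with its Wald test, 0.0028 with only the 2 groups and 0.0176 with the mapping term, *Yap1* upon stimulation of scramble cells was -0.0029 with the mapping term, and, without the samples of lower mapping rate, *Wwtr1* upon stimulation of scramble cells was 0.0160 and the interaction of *Tead2* was -0.0404. With single samples left out, values that crossed 0 ranged for *Tead1* from -0.0156 to 0.0692 and -0.0308 to 0.0242 between the lines without and with ligand, from -0.00763 to 0.0628 and -0.0306 to 0.0390 upon stimulation of scramble and shSrsf3 cells and from -0.0689 to 0.0165 in the interaction. The ranges were -0.00446 to 0.0238 for *Yap1* upon stimulation of scramble cells, -0.0239 to 0.00813 for *Wwtr1* in the interaction, -0.0395 to 0.0612 for *Ccn1* between the lines without ligand, and, upon stimulation of shSrsf3 cells, -0.0602 to 0.00514 for *Ccn2*, -0.0125 to 0.0541 for *Ankrd1* and -0.0119 to 0.0528 for *Amotl2*, with -0.0502 to 0.0145 for the interaction of *Amotl2*.

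Replicate numbers are shared between groups, but same-numbered samples did not deviate together (correlations of -0.13 to 0.15, and 5 of 12 samples correlated best with their own number). With the replicate block, 6, 6, 0 and 0 members were called in the 4 comparisons, the added gene with ligand being *Tead2* (0.16, adjusted p = 0.0275 by edgeR's test).

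Every member had at least 709 counts in each sample. The precision is limited by 3 samples per group and 1 line per shRNA.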
